A study of Mus musculus with 12 samples.

Results

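The genes described here build ribosomes or trim RNA in the nucleus. They were taken by symbol from a table of 13775 genes: all rows whose symbol starts with Utp, Nop, Nol, Rrp or Exosc and a number, together with Nolc1, Fbl, Ncl, Npm1, Dkc1, Gar1, Nhp2, Bop1, Pes1, Wdr12, Wdr43, Rrs1, Ebna1bp2 and Mybbp1a. This gave 54 genes. By role, 8 encode subunits of the RNA exosome, 22 belong to the box C/D small nucleolar ribonucleoproteins (snoRNPs) or the small-subunit processome, 4 form the box H/ACA snoRNP, 15 act in assembly of the large subunit, 4 are nucleolar chaperones or organisers, and Nol4 has none of these roles.

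RNA was sequenced from muscle satellite cells (SCs), the stem cells of skeletal muscle, sorted by flow cytometry from 2-month-old mice. Control FoxM1fl/fl mice carried loxP-flanked alleles of FoxM1, a forkhead transcription factor of the cell cycle. FoxM1-cKO mice carried the same alleles and Pax7Cre/+, in which Cre is driven by Pax7, a gene of SCs and their embryonic precursors, so that deletion is not restricted to adult cells. Each genotype was taken uninjured (labelled quiescent) and 48 h after injection of barium chloride into the tibialis anterior and gastrocnemius muscles, with 3 libraries of about 800 cells in each of the 4 groups. The comparisons ask what the loss of FoxM1 changes in resting and in activated SCs.

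Ribosomes are made in the nucleolus. RNA polymerase I transcribes a long precursor, snoRNPs modify it, the small-subunit processome cuts and folds its first part, and assembly factors package its second part into the large subunit. The RNA exosome, a barrel of subunits that feeds RNA to ribonucleases, trims the 3′ ends of ribosomal and small nucleolar RNAs and destroys failed precursors. Quiescent SCs are small cells with little RNA, and ribosome production is known to increase as such cells enter the cycle.

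Several properties of the libraries bear on every value below. Values are FPKM, fragments scaled to transcript length and library depth, and for 51 of the 54 genes they are whole numbers of reads at an annotated transcript length. The step of 1 read gave depths of 174827 to 642010 reads in uninjured FoxM1fl/fl and 170701 to 238173 in uninjured FoxM1-cKO libraries. After injury depths were 907556 to 1284058 in FoxM1fl/fl and 1692988 to 2854533 in FoxM1-cKO libraries, with no overlap between genotypes. Of 12 genes used by every cell (Actb and Gapdh among them), 3 to 7 were at 0 in each uninjured library and 1 in each injured library, so a 0 is given only as listed at 0. FoxM1fl/fl uninjured 1, FoxM1-cKO uninjured 2 and FoxM1fl/fl injured 1 resembled mixtures of the other libraries of their groups, and are called the mixed libraries. Of 436 genes at 20 FPKM or more in FoxM1fl/fl injured 2 and at 0 in injured 3, 436 were above 0 in injured 1, at a median of 0.676 times the level, as were 317 of 319 in the reverse case. The same shares were 98.0 and 94.3% for FoxM1fl/fl uninjured 1 and 92.9 and 96.7% for FoxM1-cKO uninjured 2. In injured FoxM1-cKO, with each library taken in turn, they were 33.3 to 48.6%. Replicates in the 3 groups that hold a mixed library may therefore not be independent. Foxm1 itself had 5.48, 8.95 and 7.38 FPKM in FoxM1fl/fl and 0 in FoxM1-cKO SCs without injury, and 32.8, 29.4 and 42.0 against 3.48, 1.28 and 0.832 FPKM at 48 h post-injury. The Foxm1 values are not all whole reads, and they do not settle the check of the labels. Genes of myofibres held 0.727 to 4.38% of all FPKM in uninjured FoxM1fl/fl, 5.85 to 25.3% in uninjured FoxM1-cKO and at most 0.137% in injured libraries. Of 7 macrophage markers, Ptprc alone was above 0 in uninjured libraries. The list summed to 0 to 248 FPKM in uninjured FoxM1fl/fl and to 0 in uninjured FoxM1-cKO. After injury it summed to 529 to 2052 FPKM in FoxM1fl/fl and to 7.25 to 988 FPKM in FoxM1-cKO SCs. Lyz2 and Cd14 were above 0 in all injured libraries, while Csf1r and C1qa reached only 0.166 and 0.466 FPKM. Of 9 SC markers, 1 to 4 were above 0 in each uninjured library and 3 to 8 in each injured library, with Cdh15 and Itga7 at 0 in all uninjured and all injured FoxM1fl/fl libraries. Ptprc, which encodes the CD45 that the sort selects against, was at 224 and 248 FPKM in FoxM1fl/fl uninjured 1 and 2, and at most at 0.103 FPKM elsewhere. Genes of fibro-adipogenic cells held 0.0695 to 0.0716% of all FPKM in uninjured FoxM1fl/fl and 0.277 to 0.291% in uninjured FoxM1-cKO, and 0.0164 to 0.0421% against 0.0431 to 0.158% after injury, with no overlap between genotypes in either condition. The part of these other cell types in the results was not tested.

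Promoter sequences were looked at for the E-box CACGTG, the site bound by Myc and its relatives, which are textbook activators of ribosome production. RefSeq sequence on build GRCm38.p6, from 250 bases before to 50 after each start, was matched for 42 of the 54 genes in 49 windows. The E-box was present in 10 of the 49 windows (20.4%), and in 7.15% of the 32851 windows of all genes. The E-boxes before the start of Utp18, Nol11 and Nop2 are shown with up to 20 bases on either side, because these 3 genes passed a test described below; capitals mark the E-box.
Utp18: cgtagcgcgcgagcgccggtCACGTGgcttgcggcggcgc
Nol11: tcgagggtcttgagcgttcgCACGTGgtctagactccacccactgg
Nop2: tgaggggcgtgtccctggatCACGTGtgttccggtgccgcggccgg
The stretch of Utp18 lies at chr11:93885767-93885806 on the minus strand and ends at the base before the start, with the E-box beginning 20 bases upstream. That of Nol11 is at chr11:107189399-107189444 on the minus strand, 43 bases upstream, and that of Nop2 at chr6:125131803-125131848 on the plus strand, 60 bases upstream. The same letters were found in the windows of Mybbp1a, Pes1, Rrp7a, Utp14b, Utp20, Utp4 and Wdr43. The forkhead core TAAACA, read on both strands, was present in 4 of 49 windows (8.16%; Exosc2, Nop14, Rrp1b and Wdr43) and in 13.4% of all windows. The element TTTGAA of cell cycle promoters was in 3 of 49 (6.12%) and in 17.9% of all windows, and the ETS site CCGGAAGT in 8 of 49 (16.3%) and in 3.89%. These are matches of letters and show no binding.

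In resting SCs most of these genes were not seen. In the 3 uninjured FoxM1fl/fl libraries 12, 5 and 9 of the 54 genes were above 0, and in uninjured FoxM1-cKO 4, 10 and 6 were. At 48 h post-injury the numbers were 39, 33 and 29 in FoxM1fl/fl and 37, 38 and 34 in FoxM1-cKO SCs. The injured libraries thus lay above the uninjured ones with no overlap, while the genotypes overlapped within each condition. Listed at 0 in all 6 uninjured libraries were 34 genes (63.0%, against 59.5% of all genes), and all 54 were above 0 in at least 1 injured library (87.4% of all genes). The mixed libraries held 12, 10 and 39. Depth differed between the conditions as well: with reads thinned in expectation to the shallowest library, 7.46 to 19.5% of the 51 genes would be seen in an uninjured library and 43.4 to 58.0% in an injured one, against 8.56 to 18.1% and 23.0 to 33.4% of all genes with recovered reads. In bulk samples, fewer cells of a type and less RNA per cell cannot be told apart.

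**Figure D1:**
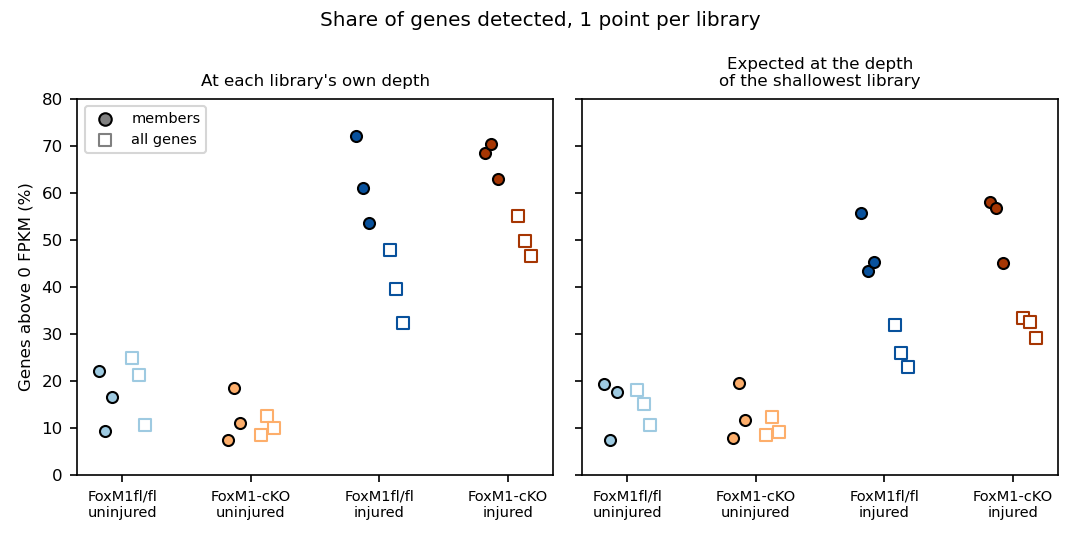
Share of genes above 0 FPKM in each library, for the 54 genes (filled circles) and all genes (open squares), at the library's own depth (left) and thinned in expectation to the depth of the shallowest library (right); each point is 1 library. At equal depth the injured libraries sit at 43.4 to 58.0% for these genes and at 23.0 to 33.4% for all genes, and the uninjured libraries at 7.46 to 19.5% and 8.56 to 18.1%.

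The reads of resting SCs came from very few of the genes. Nop16, a factor of the large subunit known from yeast, had 22.8, 0 and 329 FPKM in uninjured FoxM1fl/fl and 0, 1910 and 3608 FPKM in uninjured FoxM1-cKO SCs, where libraries 2 and 3 owed it 90.4 and 90.9% of the FPKM summed over all 54 genes. After injury FoxM1fl/fl libraries had 0 and FoxM1-cKO libraries 0.798, 17.5 and 1.93 FPKM of it. Nol7, a component of the small-subunit processome in human cells, was at 178, 0 and 1710 FPKM in uninjured FoxM1fl/fl and at 0 in uninjured FoxM1-cKO SCs. The libraries of a group differed from each other by more than the groups did: neither difference between genotypes passed the test (adjusted p = 0.701 and 0.172 from limma). The exons of Nol7 share 453 bases with Ranbp9 on the opposite strand, and whether reads were counted by strand is not given, so its value is uncertain.

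**Figure D2:**
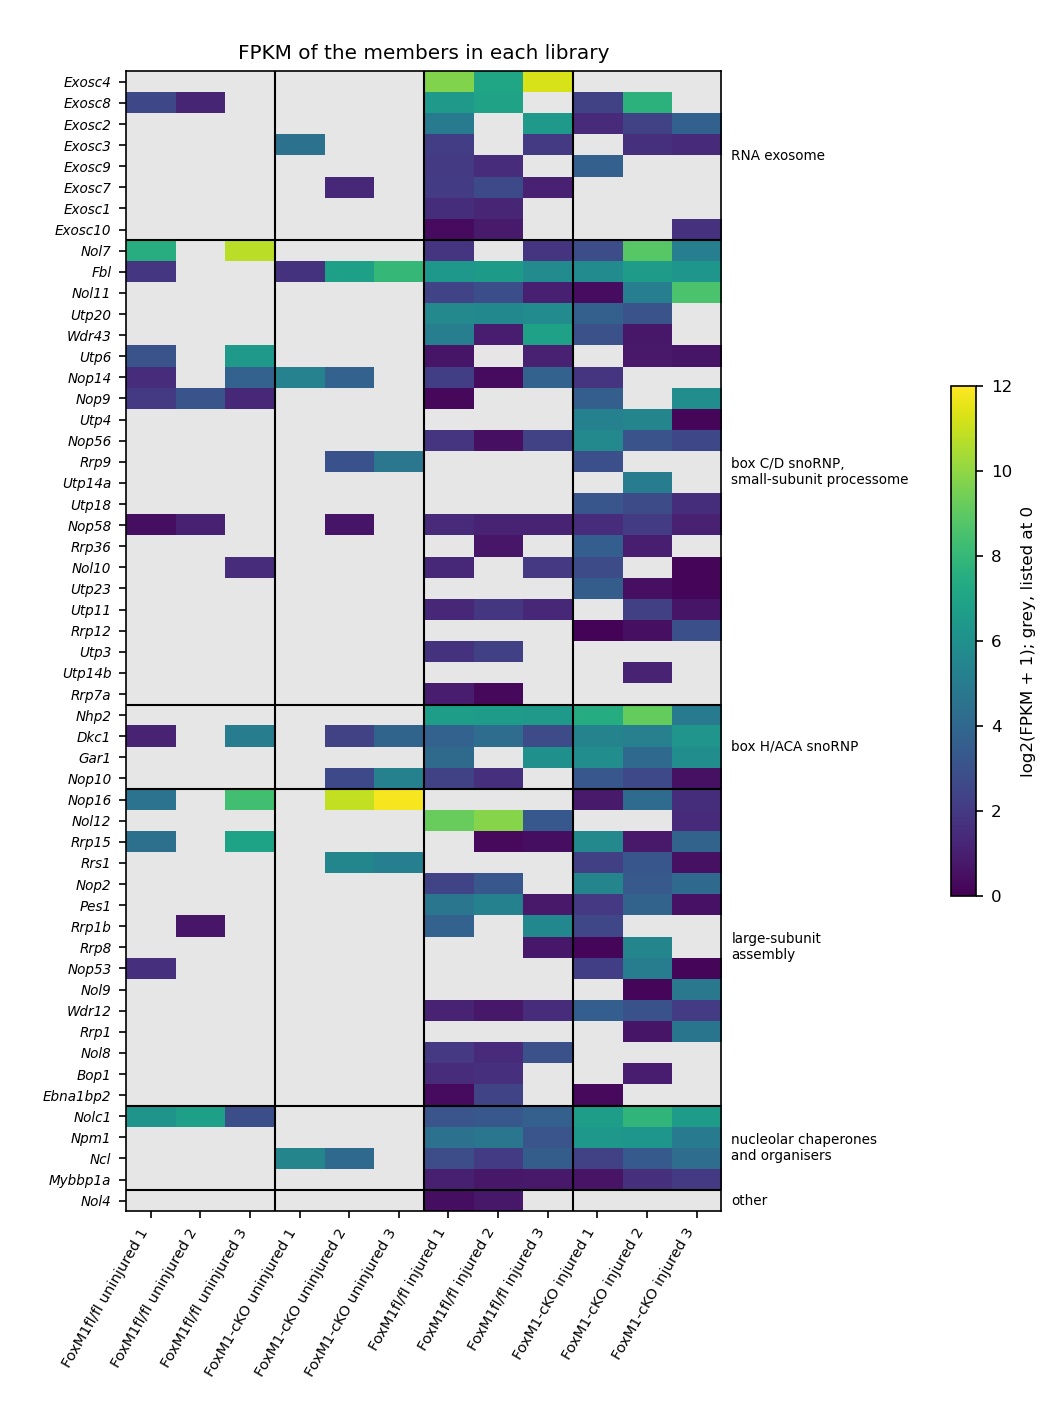
Colour gives log2(FPKM + 1) of the 54 genes (rows, grouped by role and ordered by mean FPKM) in the 12 libraries (columns), with grey for a value listed at 0. The 6 uninjured columns are mostly grey, with 4 to 12 genes above 0 in each, and the 6 injured columns hold 29 to 39.

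Differences were tested with limma on log2(FPKM + 1) over the 4956 genes that reached 1 FPKM in 3 or more of the 12 libraries. Genes are said to be called, or to have passed, when p adjusted over all of these was under 0.05. This filter kept 38 of the 54 genes, and Exosc4, Nol8 and Utp18 entered only through the 3 libraries of the group where they were high, so that they had to differ. The other 16 were Exosc1, Exosc10, Rrp12, Rrp36, Rrp7a, Utp14a, Utp14b, Utp23, Utp3, Utp4, Bop1, Ebna1bp2, Nol9, Rrp1, Rrp8 and Nol4, which did not exceed 43.7 FPKM in any library. Exosc7 and Nol12 could not have entered without the group where they were high. A gene at 0 in all uninjured libraries entered only through injured ones, so the p of its rise with injury is no separate support. The 4 comparisons share libraries, so their counts are not independent of each other.

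With injury the calls were all higher, as were most calls of the whole table. In FoxM1fl/fl SCs 10 of 38 rose and 0 fell, where 20.8% of all tested genes were called (18.8% higher, 1.92% lower). In FoxM1-cKO SCs 10 of 38 rose and 0 fell, where 24.5% of all genes were called (23.4% higher, 1.15% lower). Npm1 and Nhp2 were called in both genotypes. The injured and uninjured groups did not overlap for 18 genes in FoxM1fl/fl (47.4%, 17 higher and Nop9 lower, against 35.4% of all genes, 33.2% higher and 2.20% lower) and for 17 in FoxM1-cKO (44.7%, all higher, against 46.2%, 44.8% higher and 1.41% lower). The median difference of the 38 genes was 1.55 in FoxM1fl/fl and 1.39 in FoxM1-cKO SCs on the log2(FPKM + 1) scale, beside 1.51 and 1.68 over all tested genes, so the shares and medians stood near those of the whole table. After quantile normalization the medians of all genes fell to 0.14 and 0.10, and 4 genes rose and Nolc1 fell in FoxM1fl/fl SCs, while 3 rose in FoxM1-cKO SCs. Without FoxM1fl/fl injured 1 the FoxM1fl/fl count was 3, and without all 3 mixed libraries limma called 0 in either genotype (5 and 9 at an unadjusted p under 0.05), with 28 of the genes tested.

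Between genotypes fewer of the 38 genes were called than with injury. In uninjured SCs Nolc1 alone was lower and 0 genes were higher in FoxM1-cKO (2.63% of the 38), where 1.53% of all genes were called (0.868% higher, 0.666% lower). At 48 h post-injury Exosc4, Exosc7, Nol8 and Nol12 were lower and Utp18 was higher (13.2% of the 38). Of all genes 7.81% were called (2.66% lower, 5.15% higher). Exosc4, Nol8 and Utp18 were tested only because of the group where they were high, so the 13.2% is no separate support. The injured groups did not overlap for 17 genes, 12 higher and 5 lower in FoxM1-cKO (44.7%, against 23.1% of all tested genes, 17.2% higher and 5.87% lower). Exosc4, Nol8 and Utp18 are among the 17 and had to be apart, so this share is no separate support either. Injured FoxM1-cKO libraries were also all deeper than injured FoxM1fl/fl ones, and the part of depth in this share was not tested. The uninjured groups did not overlap for 2 genes, Nolc1 and Nop9, both lower (5.26%, against 7.10% of all genes, 3.69% higher and 3.41% lower). The median difference of the 38 genes was 0.53 after injury, beside 0.32 over all genes, and 0.00 in uninjured SCs, as over all genes. Without FoxM1fl/fl injured 1, or without the 3 mixed libraries, limma called 0 genes after injury; in the fit without the mixed libraries 3 had an unadjusted p under 0.05. Array weights, with which 24.6% of all genes were called after injury and 43.4% in uninjured SCs, gave 12 and 15 calls.

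**Figure D3:**
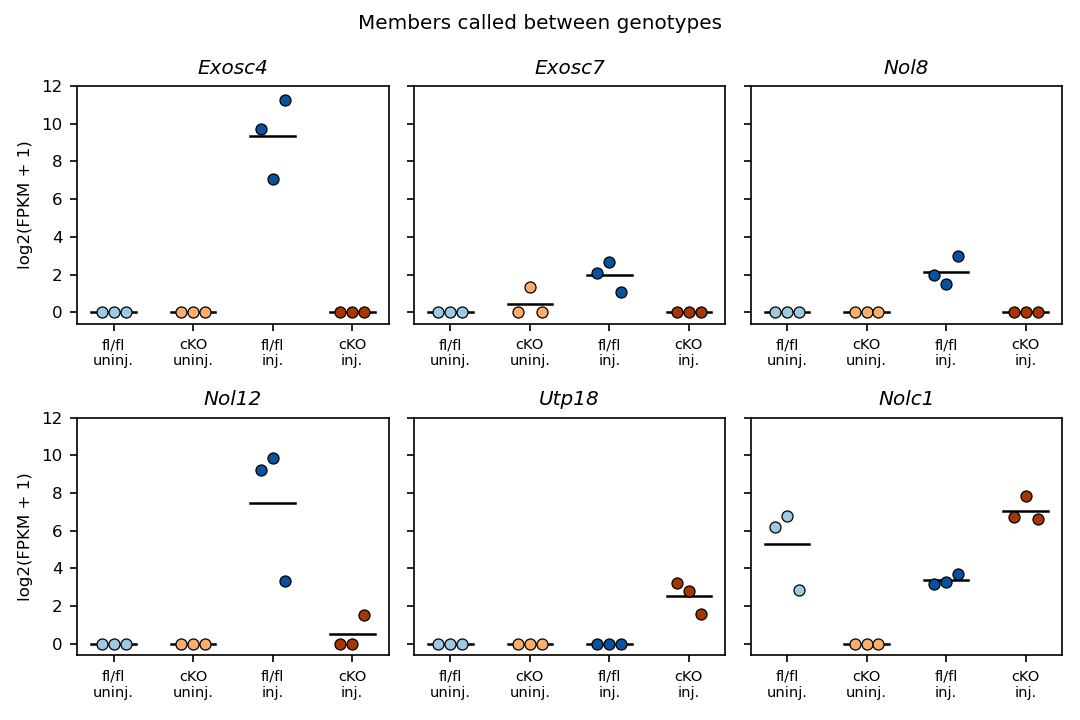
log2(FPKM + 1) of the 6 genes called between genotypes, in uninjured (uninj.) and injured (inj.) FoxM1fl/fl and FoxM1-cKO SCs; points are libraries and lines group means. Exosc4, Exosc7 and Nol8 are at 0 in all 3 injured FoxM1-cKO libraries, Utp18 is above 0 only there, and Nolc1 is at 0 only in uninjured FoxM1-cKO.

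Of the RNA exosome, Exosc4 gave the most marked values. It encodes a subunit of the ring that forms the channel for RNA, and spans bases 76327397 to 76330677 of chromosome 15 in mm10 (ENSMUSG00000034259). Exosc4 was listed at 856, 135 and 2449 FPKM in FoxM1fl/fl SCs after injury, which are 1970, 311 and 3992 reads. It was at 0 in the other 9 libraries, those of injured FoxM1-cKO SCs included, where 3 reads would be worth 0.585 to 0.987 FPKM. The injured groups were fully apart (difference in log2(FPKM + 1) of -9.36, SE 1.06, limma adjusted p = 0.00168), and as the filter admitted Exosc4 only through the higher group, this p is no separate support. With FoxM1fl/fl injured 1, a mixed library, left out, Exosc4 failed the filter and was not tested, and the 135 and 2449 FPKM of the other pair stood against 0. The injury difference of FoxM1fl/fl SCs rests on the same 3 libraries (9.36, adjusted p = 0.00090 from limma). The annotation places 385 bases of Exosc4 exons under those of Oplah on the opposite strand.

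The other ring subunits were low or uneven. Exosc7 was at 3.21, 5.41 and 1.13 FPKM in injured FoxM1fl/fl and at 0 in injured FoxM1-cKO SCs, and elsewhere only at 1.49 FPKM in FoxM1-cKO uninjured 2, which is 1 read. It was lower in injured FoxM1-cKO (difference -1.95, SE 0.51, adjusted p = 0.0309 from limma), and the call ended in 7 of 12 fits with 1 library left out (adjusted p 0.0550 to 0.0970). Exosc8 showed no such order. It was at 89.6, 119 and 0 FPKM in injured FoxM1fl/fl and at 4.08, 211 and 0 FPKM in injured FoxM1-cKO SCs. Exosc9 was at 3.15, 1.88 and 0 against 11.9, 0 and 0 FPKM, and 510 bases of its exons overlap the cyclin gene Ccna2 on the opposite strand. The injured groups overlapped for both.

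The caps of the barrel, which bind incoming RNA, did not pass either. Exosc2 was at 28.6, 0 and 84.9 FPKM in injured FoxM1fl/fl and at 1.69, 3.98 and 12.1 FPKM in injured FoxM1-cKO SCs (adjusted p = 0.615 from limma). Exosc3 reached 21.8 FPKM in FoxM1-cKO uninjured 1 from 4 reads, and was at 3.62, 0 and 3.07 against 0, 2.19 and 1.80 FPKM after injury. Exosc1 was above 0 only in FoxM1fl/fl injured 1 and 2, at 1.92 and 1.44 FPKM. The nuclear ribonuclease subunit Exosc10 was above 0 in 3 injured libraries, at 0.277 to 2.24 FPKM. Thus 5 of the 6 exosome genes tested had a negative difference after injury (median -1.20), as had 2121 of all 4956 genes (median 0.32). Of the 6, 2 passed the test, where 2.66% of all genes were called lower. These were Exosc4, tested only because of the group where it was high, and Exosc7, whose call held in 5 of 12 fits with 1 library left out. Exosc7 needed that group to meet the filter as well, since its only other value came from 1 read. Their number is therefore no result about the exosome as a class.

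Among genes of the box C/D snoRNP and the small-subunit processome, 14 of 22 were tested. Utp18, a subunit of the UtpB module in yeast, was at 8.33, 5.91 and 1.97 FPKM in injured FoxM1-cKO SCs, from 76, 32 and 13 reads, and at 0 in all 9 other libraries. It was higher than in injured FoxM1fl/fl (difference 2.53, SE 0.47, adjusted p = 0.00631 from limma, in a gene tested only because of this group), where 3 reads would be worth 0.731 to 1.03 FPKM. Left without FoxM1fl/fl injured 1, Utp18 missed the threshold (adjusted p = 0.0583 from limma). The size of the difference could not change in that fit, because all injured FoxM1fl/fl libraries are at 0. Utp20, the long scaffold protein of the processome, stood the other way round. It was at 49.0, 47.5 and 53.6 FPKM in injured FoxM1fl/fl, at 11.8, 7.37 and 0 FPKM in injured FoxM1-cKO, and at 0 in all uninjured SCs. Utp20 rose with injury in FoxM1fl/fl (difference 5.67, SE 1.01, adjusted p = 0.0030 from limma). Its difference between the injured genotypes, with groups that did not overlap, missed the threshold (-3.42, SE 1.01, adjusted p = 0.0577) and passed it under some alternatives, median-ratio scaling among them.

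Fibrillarin (Fbl), the enzyme that methylates ribosomal RNA in box C/D snoRNPs, was the most evenly present of these genes after injury. It was at 84.1, 92.7 and 54.8 FPKM in injured FoxM1fl/fl and at 53.5, 99.5 and 78.6 FPKM in injured FoxM1-cKO SCs, and these groups overlapped (difference -0.01, SE 1.46, adjusted p = 1.00 from limma). In uninjured SCs it was at 2.76, 0 and 0 FPKM in FoxM1fl/fl and at 2.43, 110 and 251 FPKM in FoxM1-cKO. Fbl thus rose with injury in FoxM1fl/fl (difference 5.62, SE 1.46, adjusted p = 0.0193) and was not called in FoxM1-cKO SCs (0.73, SE 1.46, adjusted p = 0.715), while the difference between these effects was not called (adjusted p = 0.193). The call in FoxM1fl/fl ended without uninjured 2 (adjusted p = 0.0538) or injured 1 (adjusted p = 0.0738).

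Other processome genes were called in a single genotype. Wdr43, named UTP5 in the human complex, was at 34.1, 0.903 and 117 FPKM in injured FoxM1fl/fl and at 6.90, 0.685 and 0 FPKM in injured FoxM1-cKO SCs, and rose with injury in the first (adjusted p = 0.0365 from limma). This call held in 4 of 9 fits with 1 library left out (adjusted p up to 0.103) and under 6 of 10 other alternatives. Nol11, of the human module that also aids polymerase I, was at 0.333, 33.7 and 384 FPKM in injured FoxM1-cKO and at 4.45, 6.41 and 1.05 FPKM in FoxM1fl/fl SCs after injury. It passed with injury in FoxM1-cKO (adjusted p = 0.0417), a call that held in 4 of 12 fits with 1 library left out (adjusted p up to 0.105) and under 4 of 11 other alternatives. Nop56, a core protein of box C/D snoRNPs, was at 48.7, 7.33 and 5.08 FPKM in injured FoxM1-cKO and at 2.58, 0.429 and 3.95 FPKM in injured FoxM1fl/fl, and was at 0 in all uninjured SCs. It rose with injury in FoxM1-cKO (difference 3.77, SE 0.91, adjusted p = 0.0109 from limma). This call of Nop56 ended with the compared groups alone (adjusted p = 0.0572) and after quantile normalization (adjusted p = 0.219). Nol7 was at 2.60, 0 and 2.45 FPKM in injured FoxM1fl/fl and at 6.03, 467 and 33.9 FPKM in injured FoxM1-cKO, fully apart but not called (adjusted p = 0.256).

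All 4 proteins of the box H/ACA snoRNP, which turns uridine into pseudouridine, were tested. Nhp2 gave the clearest injury difference of the class. It was at 0 in every uninjured library, at 103, 95.7 and 87.8 FPKM in injured FoxM1fl/fl and at 173, 574 and 29.3 FPKM in injured FoxM1-cKO SCs. Each injured value was above the 4.48 to 16.9 FPKM that 3 reads would be worth in the uninjured libraries. Nhp2 rose in both genotypes (differences 6.59 and 7.18, SE 1.13, adjusted p = 0.00246 and 0.00146 from limma), and the injured genotypes overlapped. As Nhp2 entered the test only through injured libraries, these p-values are no separate support. Gar1 was at 16.6, 0 and 63.3 FPKM in injured FoxM1fl/fl and at 58.4, 16.3 and 58.4 FPKM in injured FoxM1-cKO, and rose with injury in FoxM1-cKO (difference 5.30, SE 1.31, adjusted p = 0.0122). After quantile normalization Gar1 was not called (adjusted p = 0.1645 from limma). Dkc1, the pseudouridine synthase dyskerin, was at 12.5, 18.6 and 5.89 against 40.7, 36.9 and 76.3 FPKM after injury. These groups did not overlap, and the difference was not called (2.02, SE 1.41, adjusted p = 0.419 from limma). Nop10 was at 4.22, 2.11 and 0 against 8.53, 5.33 and 0.437 FPKM.

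In assembly of the large subunit, 10 of 15 genes were tested. Nol12, the relative of the yeast nuclease Rrp17, was the most abundant after injury in FoxM1fl/fl SCs. It was at 592, 906 and 8.89 FPKM there, at 0, 0 and 1.83 FPKM in injured FoxM1-cKO and at 0 in uninjured SCs. The injured groups did not overlap (difference -6.95, SE 1.42, adjusted p = 0.0100 from limma), although library 3 held 30 reads where the other pair held 2823 and 4331. Without FoxM1fl/fl injured 1 the call ended (adjusted p = 0.0595), and without the 3 mixed libraries it did as well (adjusted p = 0.288). Nol8, a nucleolar protein needed for ribosomal RNA processing in human cells, had much smaller values. It was at 2.95, 1.80 and 6.94 FPKM in injured FoxM1fl/fl, from 18, 11 and 30 reads, and at 0 in the other 9 libraries. It was lower in injured FoxM1-cKO (difference -2.15, SE 0.42, adjusted p = 0.00786 from limma), and was tested only because of the group where it was high. With any FoxM1fl/fl injured library left out it failed the filter.

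Proteins of the PeBoW complex, which acts in processing of the large-subunit RNA, differed in their order. Pes1 was at 25.4, 37.6 and 0.754 FPKM in injured FoxM1fl/fl and at 3.00, 12.9 and 0.498 FPKM in injured FoxM1-cKO, and was just past the threshold for injury in the first (adjusted p = 0.0467 from limma), which it met in 4 of 12 fits with 1 library left out (adjusted p up to 0.150). Wdr12 stood the other way round, at 1.25, 0.700 and 1.87 against 11.0, 7.08 and 3.29 FPKM, and rose with injury in FoxM1-cKO (difference 2.90, SE 0.62, adjusted p = 0.00608). Their partner Bop1 was at or below 2.20 FPKM in every library. Nop2, a methyltransferase of the large ribosomal RNA, was at 4.51, 8.70 and 0 FPKM in injured FoxM1fl/fl and at 42.6, 9.10 and 16.1 FPKM in injured FoxM1-cKO SCs, and rose with injury in FoxM1-cKO (difference 4.29, SE 0.98, adjusted p = 0.00813 from limma). Quantile normalization ended the injury calls of Nop2 (adjusted p = 0.1565 from limma) and Wdr12 (0.2665). That of Wdr12 also ended with the compared groups alone (adjusted p = 0.0536). The groups of injured genotypes were apart for Nop2, Wdr12, Nop16, Nop53, Rrp15 and Rrs1, all higher in FoxM1-cKO and none called (adjusted p 0.117 to 0.675), and for Nol12 and Nol8, both lower. The lowest injured FoxM1-cKO values of Nop53, Rrs1 and Nop16 were 0.153, 0.474 and 0.798 FPKM, from 1, 2 and 4 reads. In injured FoxM1fl/fl, where all 3 genes were at 0, 3 reads of a 2 kb gene are worth 1.17 to 1.65 FPKM. These lowest values could therefore not be told from the 0 there.

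Of the nucleolar chaperones and organisers, Nolc1 changed with genotype in uninjured SCs. It encodes a phosphoprotein that escorts snoRNPs between Cajal bodies and the nucleolus, and spans bases 46075863 to 46085530 of chromosome 19 (ENSMUSG00000015176). Nolc1 was at 73.3, 107 and 6.30 FPKM in resting FoxM1fl/fl SCs, from 160, 250 and 4 reads, and at 0 in uninjured FoxM1-cKO SCs, where 3 reads would be worth 3.47 to 4.84 FPKM. The difference was -5.28 (SE 1.16, adjusted p = 0.0395 from limma). This call ended in 6 of 12 fits with 1 library left out, at adjusted p up to 0.224 without FoxM1fl/fl uninjured 1, and without the 3 mixed libraries (adjusted p = 1.00). With a replicate block it missed the threshold too (adjusted p = 0.0692). After injury the order was the opposite. Nolc1 was at 7.94, 8.57 and 11.8 FPKM in FoxM1fl/fl and at 103, 228 and 98.1 FPKM in FoxM1-cKO, groups that did not overlap, with a difference that was not called (3.69, SE 1.16, adjusted p = 0.0776). It rose with injury in FoxM1-cKO (difference 7.06, SE 1.16, adjusted p = 0.00170), and the genotype difference itself changed between conditions (8.97, SE 1.64, adjusted p = 0.0406 from limma, where 1.09% of all genes were called, 0.605% higher and 0.484% lower).

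Nucleophosmin (Npm1), which holds the outer layer of the nucleolus together, was at 0 in every uninjured library. It was at 21.0, 25.3 and 8.10 FPKM in injured FoxM1fl/fl and at 82.8, 77.0 and 30.6 FPKM in injured FoxM1-cKO SCs. Npm1 rose with injury in both genotypes (differences 4.12 and 5.89, SE 0.91, adjusted p = 0.00858 and 0.00146 from limma), and the injured groups were apart without a call (adjusted p = 0.266). As Npm1 entered the test only through injured libraries, the p-values of its rise are no separate support. In FoxM1fl/fl the call ended without injured 1 (adjusted p = 0.0523). Npm1 is known to have pseudogenes, and their part in its counts was not measured. Nucleolin (Ncl) was at 0 in uninjured FoxM1fl/fl, at 43.6, 16.2 and 0 FPKM in uninjured FoxM1-cKO, and at 3.42 to 18.3 FPKM in all injured libraries. Mybbp1a, a repressor of Myb that also binds polymerase I, was called with injury in FoxM1-cKO SCs (adjusted p = 0.0274), but not with any 1 of the uninjured FoxM1-cKO libraries left out (adjusted p 0.0687 to 0.0882). Its 0.551, 2.12 and 3.05 FPKM there are below the 3.95 FPKM that 3 reads would be worth in the shallowest uninjured library, so a rise was not detectable at this depth.

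**Figure D4:**
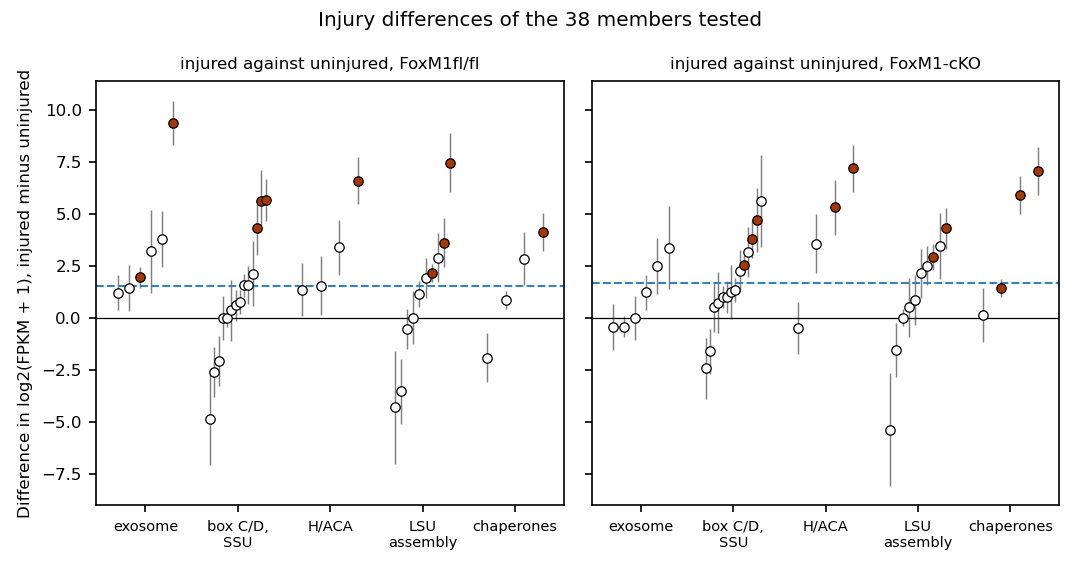
Difference in log2(FPKM + 1) between injured and uninjured SCs for the 38 genes tested, by role, in FoxM1fl/fl (left) and FoxM1-cKO (right); bars are the SE from limma, filled points are called at an adjusted p under 0.05, and the dashed line is the median of all tested genes. SSU and LSU stand for small and large subunit. Filled points are 10 in each panel, all above 0, and the dashed lines lie at 1.51 and 1.68.

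Depth limits how the rises with injury can be read. Of the 9 genes called in FoxM1fl/fl that were at 0 in its uninjured libraries, Exosc4, Nhp2, Nol12 and Utp20 were above 3 reads' worth of the shallowest of them in all 3 injured libraries. In FoxM1-cKO SCs this held for 7 of 10, namely Gar1, Nhp2, Nolc1, Nop2, Nop56, Npm1 and Wdr12. For the others at least 1 injured value lay below that level. Apart from Exosc7 and Nolc1, these called genes were at 0 in all uninjured libraries and entered the test only through injured ones. Their p-values are therefore no separate support for a rise.

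Genes of the same pathway that the symbols do not cover were read from lists of polymerase I factors, further processome and large-subunit factors, snoRNP assembly factors, exosome cofactors, and Myc and its partners. Of 150 such genes 78 were tested. With injury 16 rose and 0 fell in FoxM1fl/fl, and 20 rose and 2 fell in FoxM1-cKO SCs, where 20.8 and 24.5% of all tested genes were called. Among them the helicase Ddx21 was at 0 in uninjured SCs and at 122, 77.3 and 115 FPKM in injured FoxM1-cKO, and the ATPase Ruvbl1, which helps to assemble snoRNPs, was at 297, 239 and 424 FPKM in injured FoxM1fl/fl. Both passed the test in the genotype named (adjusted p = 0.00292 and 0.00238 from limma). Both were at 0 in all uninjured libraries and entered the test only through injured ones. Ddx21 passed in FoxM1fl/fl as well, at 26.4, 0.825 and 72.6 FPKM after injury (adjusted p = 0.0413 from limma). Ruvbl1 was at 0, 83.2 and 41.4 FPKM in injured FoxM1-cKO, without a call.

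Between genotypes 3 of the 78 were higher and 2 lower in injured FoxM1-cKO SCs, where 5.15% of all genes were called higher and 2.66% lower. Eif6, which keeps the new large subunit apart from the small one, was at 0, 1.04 and 0 FPKM in injured FoxM1fl/fl and at 17.3, 249 and 16.5 FPKM in injured FoxM1-cKO (adjusted p = 0.00895 from limma). The processome genes Ddx52 and Wdr3 were at 0 in injured FoxM1fl/fl and at 3.15 to 38.3 FPKM in injured FoxM1-cKO, whereas Tsr2 and Ddx56 were lower. Ddx52, Wdr3 and Tsr2 reached 1 FPKM only in the group where they were high. They entered the test through that group and had to differ. In uninjured SCs 2 were higher and 1 was lower, where 1.53% of all genes were called. The exosome cofactor C1d was at 0 in FoxM1fl/fl and at 19.7, 48.5 and 74.6 FPKM in FoxM1-cKO (adjusted p = 0.0208 from limma). Coil, the scaffold of Cajal bodies, was at 0 against 1.35 to 1.88 FPKM, and was tested only because of the group where it was high. Riok3, a kinase of late small-subunit precursors, was the lower one, at 567, 594 and 62.5 against 1.60, 3.16 and 0 FPKM (adjusted p = 0.0166 from limma). After injury Riok3 was at 32.4, 19.1 and 70.1 FPKM in FoxM1fl/fl and at 1186, 440 and 265 FPKM in FoxM1-cKO, and its genotype difference changed between conditions (10.81, SE 1.76, adjusted p = 0.0369 from limma). All calls of these pathway lists are from the fit to all 12 libraries, the mixed ones included. Whether they hold under the alternatives was not examined.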

How the data were processed

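RNA from 12 libraries of sorted SCs was sequenced by the study on an Illumina instrument. Per the labels, the authors aligned to mm10 with Bowtie 0.12.9 and used Cufflinks 2.1.1 and HTSeq, and the deposited values are FPKM per gene. FPKM are not counts, so limma 3.58.1 in R 4.3.3 was fitted to log2(FPKM + 1) with 4 group means and a variance trend, after a filter of at least 1 FPKM in at least 3 libraries. Benjamini-Hochberg adjustment ran across the 4956 genes tested. A fold on this scale understates the change of low genes. Reads were recovered at GENCODE M21 transcript lengths, with a tolerance of 0.02 read and 0.05%, for 95.8% of the genes tried. Reads carry no molecular identifiers, so 3 reads' worth covers counting error only. Nothing ties a library to a mouse, and p-values may measure technical spread.

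Every called gene, the 2 most abundant of each role, all exosome subunits, up to 4 genes per comparison that kept the groups apart at 5 FPKM or more, and up to 4 called genes of each pathway list were eligible for naming. The genes and lists were chosen with earlier results of these data known. Alternatives were other pseudocounts, filters and scalings, array weights, a fit of the compared groups alone, no trend, a replicate block, each library left out, and no mixed libraries; limma voom on recovered reads was added after seeing the data. Python 3.11.15 made tables and plots.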

Additional observations from a re-analysis of the deposited data

Results flagged for a closer look

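The effect of the knockout differed between injured and uninjured SCs for 2 of the 38 genes tested, by limma's test of the difference itself, which called 1.09% of all genes. For Exosc4 the knockout effect in injured minus that in uninjured SCs was -9.36 in log2(FPKM + 1), with an SE of 1.504 and an adjusted p of 0.0369. All 3 of the injured FoxM1fl/fl libraries were at 135 FPKM or more and every other library at 0, so this value repeats the difference between the injured genotypes, and Exosc4 was tested only because of the group where it was high. For Nolc1 it was 8.97 (SE 1.64, adjusted p = 0.0406), with FoxM1-cKO below FoxM1fl/fl in uninjured and above it in injured SCs, in 3 of 3 libraries each. Each call ended without FoxM1fl/fl uninjured 1 (adjusted p = 0.157 for both) and without FoxM1-cKO uninjured 2 (0.165 for both), and that of Nolc1 also without FoxM1fl/fl injured 1 (0.169). Without the 3 mixed libraries Nolc1 was not called (adjusted p = 0.709), and Exosc4 was not tested.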

How the results depend on the processing

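No direction of a called gene was reversed by any alternative, which was largely fixed in advance. Called with a group at 0 in all its libraries were 1 gene between uninjured and 4 between injured genotypes. With injury they were 9 in FoxM1fl/fl and 10 in FoxM1-cKO. For these, another pseudocount, filter or set of libraries cannot reverse the sign. Counts of called genes, in the order FoxM1-cKO against FoxM1fl/fl uninjured and injured, injury in FoxM1fl/fl and in FoxM1-cKO, and the change of the genotype difference with injury, were 1, 5, 10, 10 and 2. A pseudocount of 0.1 raised injury in FoxM1fl/fl to 16 and the last to 6. A pseudocount of 5 lowered the first to 0, injury in FoxM1fl/fl to 6 and the last to 0. With no filter they were 0, 2, 5, 8 and 0. With at least 1 FPKM in at least 6 libraries (12 ribosome biogenesis and exosome genes tested) the injured genotypes gave 0, injury 3 and 4, and the last 1. Quantile normalization gave 5 and 3 for injury and 0 for the last, and the calls of all genes with injury in FoxM1fl/fl went from 90.8 to 50.6% higher. With the compared groups alone the genotypes gave 0 and 1 and injury in FoxM1-cKO 5; this fit has no value for the last. Array weights, which did not converge, gave 15, 12, 34, 12 and 16. Without the 3 mixed libraries all 5 were 0 in limma, with 2, 3, 5, 9 and 4 at an unadjusted p under 0.05; the cause was not tested beyond the smaller number of libraries and genes. Leaving out 1 library gave 0 to 4, 0 to 6, 3 to 11, 8 to 11 and 0 to 4. limma voom on recovered reads gave 2, 6, 13, 10 and 7, with 3 lower calls for injury in each genotype; Exosc4 and Nol8, lower in FoxM1-cKO there, are at 0 in all its libraries and move only through the depth beneath voom's offset. Same-numbered libraries did not deviate together (correlations -0.032 to 0.054), and a replicate block gave 0 for the first and 0 for the last, with 5, 10 and 10 for the others. Depth limits the uninjured libraries, where 3 reads of a 2 kb gene are worth 2.34 to 8.79 FPKM.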
